A study of Homo sapiens with 6 samples.

Results

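The nuclear pore complex genes and the importins that carry cargo through the pore were followed in human diploid fibroblasts (HDFs) depleted of MALAT1, a long noncoding RNA of the nucleus. A gene was a member if its symbol began with NUP followed by a digit or the letter L, or if it was AAAS, RANBP2, TPR, SEH1L, SEC13, RAE1, KPNB1 or one of the KPNA genes KPNA1 to KPNA6. It also needed at least 3 exon probesets, the groups of probes by which the array reads single exons, that named it alone. Of 33 symbols that met the rule by name, 32 had enough probesets, out of 15417 genes tested on the array. Those 32 members held 687 probesets, from 4 to 51 each with a median of 18, and the value of a gene was the mean of its probesets on the log2 scale. KPNA2 had 1 probeset and was left out of the counts, and NUP85, NUP188 and NUP205 were not analysed here. The array spells NUP58 as NUPL1 and NUP42 as NUPL2, and those spellings are kept.

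The cells were WI38, a human lung fibroblast line, given 2 transfections, 24 h apart, with 100 nM of an antisense DNA oligonucleotide. The oligonucleotides AS1 and AS2, both against MALAT1, defined the depleted groups, and a control oligonucleotide (Ctr) defined the third. Each group had 2 Human Exon 1.0 ST arrays, 6 arrays in all, and AS1 and AS2 were both compared with the same Ctr arrays. No source says that the 2 arrays of a group came from separate cultures, and a p-value here measures the spread among 6 arrays, which may be technical. All groups share the transfection, so no untransfected cells enter any comparison.

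The nuclear pore is a ring of many proteins set in the nuclear envelope. Outer and inner rings form its scaffold, a membrane ring anchors it, proteins rich in phenylalanine-glycine (FG) repeats fill the central channel, filaments reach into the cytoplasm and a basket reaches into the nucleus. Importins bind cargo in the cytoplasm, pass the FG repeats and release the cargo when they meet Ran bound to GTP in the nucleus. Many pore proteins also act away from the pore during cell division, when the envelope of fibroblasts comes apart and is rebuilt.

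The 2 oligonucleotides that separate the groups are shown first, because every comparison rests on them. They are written 5′ to 3′ as designed by the study.
MALAT1-AS1: gggagttacttgccaacttg
MALAT1-AS2: atggaggtatgacatataat
MALAT1 itself read between 7.82 and 9.23 on the log2 scale on the oligonucleotide arrays and between 11.97 and 12.00 on the Ctr arrays. On the log2 scale its change was -3.46 for AS1 (adjusted p = 0.000115) and -3.82 for AS2 (adjusted p = 4.24e-05). These and all adjusted p-values below came from limma with Benjamini-Hochberg adjustment over all genes, and a gene was called when its adjusted p was under 0.05. The array medians lay between 7.34 and 7.36, and arrays of 1 group correlated at 0.984 to 0.987 over probesets, against 0.959 to 0.968 between an oligonucleotide array and a Ctr array. The 9 fibroblast markers measured stood between the 91.3 and 99.8 percentile of all genes in the Ctr arrays, whereas the 5 leukocyte markers lay between 1.97 and 39.3, the 6 epithelial between 8.48 and 56.3 and the 7 endothelial between 13.2 and 80.6.

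The pore genes did not move as 1 group in MALAT1-depleted cells. In the mean of AS1 and AS2 against Ctr, 10 of 32 members were called (31.2%), against 24.8% of all genes. Of these, 5 (AAAS, SEC13, NUP88, NUP37 and NUP43) fell, a direction called for 10.7% of all genes, and 5 (NUP210L, NUP50, NUPL2, KPNA5 and KPNA4) rose, a direction called for 14.1%. The median change of the members was 0.03 on the log2 scale beside -0.04 over all genes, and single members ranged from -0.77 to 1.37. The median size of change, with the sign left out, was 0.29 for members and 0.18 for all genes, while 1 member (NUP210L) and 3.61% of all genes differed by more than 2-fold. Most members were brighter in Ctr than the median gene. The all-gene shares and medians here and below therefore include many dimmer genes, and none for genes of like brightness is given.

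**Figure D1:**
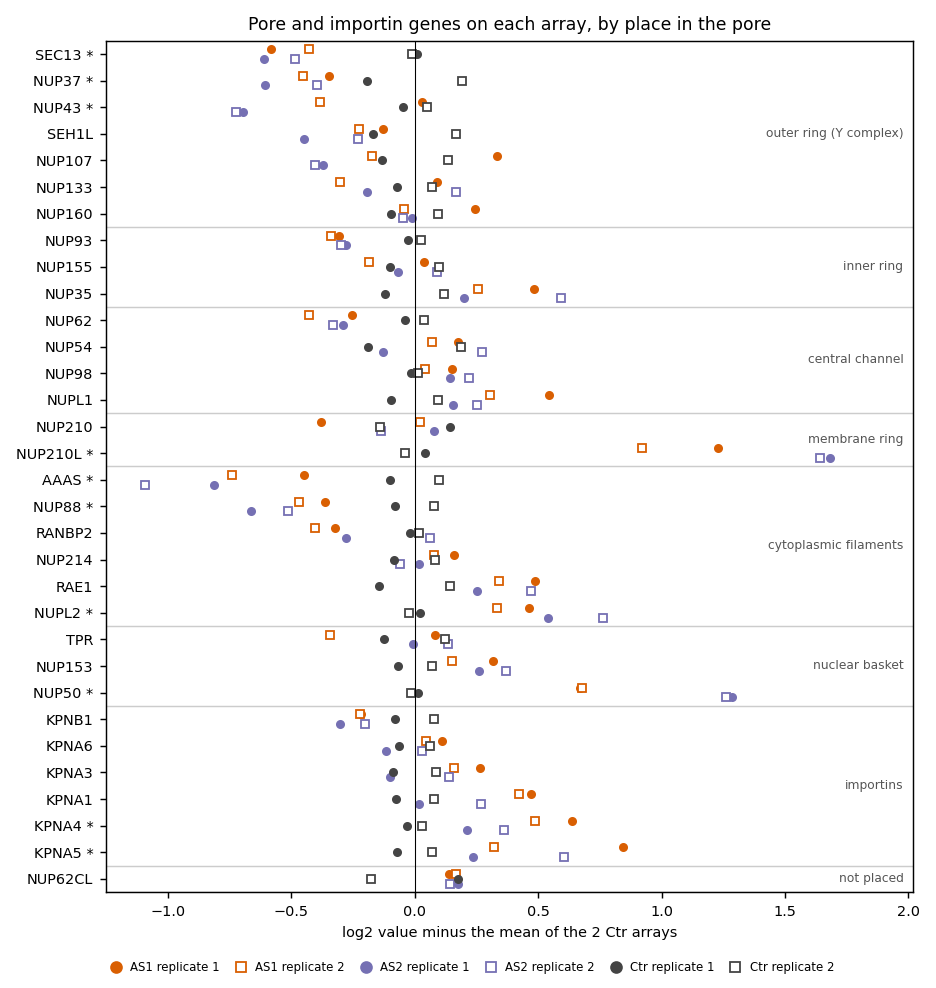
Log2 value of each of the 32 genes on each of the 6 arrays (x axis), after subtracting the mean of the 2 Ctr arrays, with genes grouped by place in the pore; filled circles are replicate 1, open squares replicate 2, and a star marks the 10 genes called in the mean of AS1 and AS2. The outer ring lies mostly left of 0 and no outer ring gene was called higher, a direction called for 14.1% of all genes. NUP50 and NUP210L stand well to the right, further with AS2 than with AS1.

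All 4 oligonucleotide arrays lay below both Ctr arrays for 7 members and above both for 10, so 17 of 32 members did not overlap Ctr, whereas 41.5% of all genes did not. The Ctr arrays themselves differed in these genes: replicate 2 read above replicate 1 in 26 of the 32 members, by 0.12 on average, beside an average of -0.02 over all genes. That shift was not particular to the members. It averaged 0.16 in the fibroblast markers and 0.35 in markers of dividing cells. In the dimmer epithelial, endothelial and leukocyte markers it averaged -0.17, -0.19 and -0.24. Leaving out Ctr replicate 2 left 2 members called lower. Leaving out AS2 replicate 1 or AS2 replicate 2 left 3, and the number called higher went from 5 to 8 without AS1 replicate 2 and to 3 without AS2 replicate 2 or without Ctr replicate 1. Markers of dividing cells moved with the groups: 17 of 19 fell, with a median of -1.03 on the log2 scale, and the mean of the list lay 0.80 to 1.09 below Ctr on the 4 oligonucleotide arrays. Fibroblast markers also moved: 3 of 9 fell (COL3A1, THY1 and PDGFRB) and 0 rose, with a median of -0.33. The mean of that list lay 0.24 to 0.63 below Ctr on the 4 oligonucleotide arrays. Over all genes, 10.7% were called lower and 14.1% higher. The part of either list in the pore results was not tested, and in these bulk samples fewer cells of a type and less RNA per cell cannot be told apart.

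The outer ring, or Y complex, is the scaffold that coats both faces of the pore. Of its 7 members measured, 3 fell, 0 rose and 4 were not called, beside 10.7% of all genes called lower and 14.1% higher. The median change was -0.26. SEC13, a propeller protein that also forms part of the COPII coat of secretory vesicles, read 9.82 and 9.97 with AS1, 9.79 and 9.92 with AS2, and 10.41 and 10.39 with Ctr. All 4 oligonucleotide arrays lay at least 0.42 below the Ctr arrays, which were 0.02 apart. SEC13 was 1.44-fold lower (log2 change -0.53 ± 0.11 (SE), adjusted p = 0.0062), and all 8 of its probesets had a lower mean. NUP37, a WD-repeat protein at the edge of the Y complex, read 6.91 and 6.81 with AS1, 6.65 and 6.86 with AS2, and 7.07 and 7.45 with Ctr. Every oligonucleotide array was below both Ctr arrays, but the Ctr arrays were 0.39 apart. The change was -0.45 ± 0.14 (SE) with an adjusted p of 0.0338, and without Ctr replicate 2 it was -0.26 with an adjusted p of 0.304. The call was also lost without AS2 replicate 1 (adjusted p = 0.115) and without AS2 replicate 2 (adjusted p = 0.0624).

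NUP43, another WD-repeat member of the outer ring, read 9.04 and 8.63 with AS1, 8.31 and 8.29 with AS2, and 8.96 and 9.06 with Ctr. Replicate 1 of AS1 lay within the Ctr range, and the AS2 arrays were the lowest. The change was -0.18 with AS1 (adjusted p = 0.484) and -0.71 with AS2 (adjusted p = 0.00804), with -0.44 ± 0.13 (SE) in the mean of both (adjusted p = 0.0327). Leaving out any 1 array except AS1 replicate 1 ended the call in the mean, with adjusted p between 0.0676 and 0.144. SEH1L, shared by the Y complex and the nutrient-sensing GATOR2 complex, read 8.73 and 8.63 with AS1, 8.41 and 8.63 with AS2, and 8.69 and 9.03 with Ctr. The groups overlapped, since 3 of the 4 oligonucleotide arrays were below both Ctr arrays, and the change of -0.26 was not called (adjusted p = 0.202). The 3 large scaffold proteins that form the stem and arms of the Y, NUP107, NUP133 and NUP160, had differences from Ctr of -0.15, -0.06 and 0.04, and none was called.

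The inner ring links the scaffold to the membrane and the channel. Of 3 members measured, 0 were called in the limma fit used throughout, beside 24.8% of all genes. An unadjusted p under 0.05 was reached by 2, a level not counted over all genes. NUP93, the hub of the inner ring, read 9.92 and 9.89 with AS1, 9.95 and 9.93 with AS2, and 10.20 and 10.25 with Ctr. The oligonucleotide arrays formed a tight set below Ctr, and the change was -0.31 ± 0.11 (SE) with an adjusted p of 0.061. NUP93 passed the threshold by an ANOVA without moderation of the variances, and by limma with trend and robust moderation, after quantile normalization again, or among genes at or above the median. NUP35, which touches the membrane, read 7.33 and 7.10 with AS1, 7.04 and 7.44 with AS2, and 6.73 and 6.96 with Ctr, and NUP155, another membrane-binding scaffold protein, read 8.73 and 8.51 with AS1, 8.63 and 8.78 with AS2, and 8.60 and 8.79 with Ctr. NUP35 lay above Ctr on all oligonucleotide arrays (0.38 ± 0.14 (SE), adjusted p = 0.0783), whereas NUP155 overlapped Ctr with a difference of -0.03. NUP35 was called without AS1 replicate 2.

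An unadjusted limma p under 0.05 was reached by 2 of the 4 central channel genes, a level not counted over all genes. In the limma fit used throughout 0 of the 4 were called, beside 24.8% of all genes, and 0 by ANOVA. Other limma settings called some of them: NUP62 and NUPL1 with trend and robust moderation or among genes at or above the median, NUP62 after quantile normalization again or without AS1 replicate 1, and NUPL1 without AS1 replicate 2. NUP62, the central FG protein, read 8.60 and 8.43 with AS1, 8.56 and 8.52 with AS2, and 8.82 and 8.89 with Ctr. All 4 oligonucleotide arrays were below Ctr and all 12 probesets had a lower mean, but the change of -0.33 ± 0.11 (SE) did not pass (adjusted p = 0.0575). NUPL1, encoding the channel protein NUP58, read 8.97 and 8.73 with AS1, 8.58 and 8.67 with AS2, and 8.33 and 8.52 with Ctr. It lay above Ctr on all 4 arrays (0.31 ± 0.12 (SE), adjusted p = 0.0903), opposite in sign to its channel partner NUP62. NUP98, the FG protein that binds RAE1, read 9.47 and 9.36 with AS1, 9.46 and 9.54 with AS2, and 9.31 and 9.34 with Ctr, and NUP54, which joins NUP62 and NUP58 in 1 complex, read 7.97 and 7.87 with AS1, 7.67 and 8.07 with AS2, and 7.61 and 7.99 with Ctr. The differences from Ctr were 0.14 for NUP98 and 0.10 for NUP54, and neither was called. NUP62 overlaps IL4I1 and ATF5 in RefSeq. Over all members, the 2 probesets that named a member together with another gene were not used.

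Of the 2 membrane ring genes, NUP210L rose, a direction called for 14.1% of all genes. NUP210L, a paralogue of the membrane pore protein NUP210, read 5.30 and 4.99 with AS1, 5.76 and 5.72 with AS2, and 4.12 and 4.03 with Ctr. The groups did not overlap, and both AS2 arrays were above both AS1 arrays. The log2 difference was 1.37 ± 0.12 (SE) in the mean of both (adjusted p = 3.89e-05), with 1.07 for AS1 (adjusted p = 0.000621) and 1.66 for AS2 (adjusted p = 3.64e-05). Its level in Ctr was at the 6.31 percentile of all genes and 25 of its 39 probesets were among the dimmest 25% on the array, so its values lie near the lower end of the scale and the difference is that of the RMA values, not an exact fold of RNA. Even so, 28 probesets were called higher and 0 lower, all 4 oligonucleotide arrays exceeded both Ctr arrays in 34, and the call held under each of the 16 alternative settings and left-out arrays run for it. NUP210 itself, a transmembrane protein of the pore, read 5.86 and 6.26 with AS1, 6.32 and 6.10 with AS2, and 6.38 and 6.10 with Ctr. The groups overlapped, and its change was -0.10 (adjusted p = 0.679).

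Cytoplasmic filament genes went in both directions: 2 of 6 fell, 1 rose and 3 were not called. Among all genes, 10.7% were called lower and 14.1% higher. AAAS, encoding ALADIN, the protein affected in triple A syndrome, read 9.01 and 8.72 with AS1, 8.65 and 8.37 with AS2, and 9.36 and 9.56 with Ctr. All oligonucleotide arrays were below Ctr, and AS2 was lower than AS1 on each array. AAAS was 1.71-fold lower (log2 change -0.77 ± 0.14 (SE), adjusted p = 0.00208), the largest fall among the 32 members, with -0.60 for AS1 (adjusted p = 0.023) and -0.95 for AS2 (adjusted p = 0.00187). Each of its 16 probesets had a lower mean, by 0.47 to 1.07 in size, and 6 were called. NUP88, the partner of NUP214 on the cytoplasmic face, read 9.23 and 9.12 with AS1, 8.93 and 9.08 with AS2, and 9.51 and 9.67 with Ctr. It fell on all 4 arrays (-0.50 ± 0.12 (SE), adjusted p = 0.00922), and without Ctr replicate 2 the change was -0.42 with an adjusted p of 0.0842. The NUP88 gene overlaps RABEP1 in RefSeq, and the strand of its probes was not checked here.

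NUPL2, encoding the mRNA export factor NUP42, read 7.00 and 6.87 with AS1, 7.08 and 7.30 with AS2, and 6.56 and 6.51 with Ctr. It rose 1.44-fold (log2 change 0.52 ± 0.12 (SE), adjusted p = 0.00773) with no overlap, but its probesets were uneven: probeset 2992788 rose by 2.17 and 3 of the 10 had a lower mean. When the median of the probesets stood for the gene, the change was 0.33 and the call was lost (adjusted p = 0.136). RAE1, an mRNA export factor that also takes part in spindle assembly, read 8.68 and 8.53 with AS1, 8.44 and 8.66 with AS2, and 8.04 and 8.33 with Ctr. All oligonucleotide arrays lay above Ctr, and the change of 0.39 ± 0.13 (SE) stood just outside the threshold (adjusted p = 0.051). RAE1 passed by limma with trend and robust moderation or among genes at or above the median. It also passed after quantile normalization again or centring on the array median. NUP214, the FG protein bound to NUP88, stood 0.05 above Ctr, and RANBP2, the large Ran-binding filament protein, had a difference of -0.24 (adjusted p = 0.216). RANBP2 shares sequence with the RGPD genes, and its values are therefore uncertain.

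In the nuclear basket 1 of 3 genes rose, beside 14.1% of all genes. NUP50, a mobile basket protein that helps importin alpha shed its cargo, read 8.36 and 8.37 with AS1, 8.98 and 8.95 with AS2, and 7.71 and 7.68 with Ctr. The 3 groups were fully apart, with AS1 between Ctr and AS2, and replicates of a group differed by 0.03 or less. NUP50 was 1.96-fold higher (log2 change 0.97 ± 0.11 (SE), adjusted p = 0.000125), with 0.67 for AS1 (adjusted p = 0.00363) and 1.27 for AS2 (adjusted p = 8.25e-05). That value is a mean of only 4 probesets, whose changes ranged from -0.13 to 2.06, and 2 of the 4 were called higher. The fold is therefore not that of the whole gene. NUP153, which anchors the basket, read 10.11 and 9.95 with AS1, 10.06 and 10.16 with AS2, and 9.73 and 9.86 with Ctr, and TPR, the long coiled-coil protein of the basket, read 8.13 and 7.70 with AS1, 8.04 and 8.18 with AS2, and 7.92 and 8.17 with Ctr. NUP153 lay above Ctr on all 4 arrays without passing the threshold in the limma fit used throughout (0.27 ± 0.12 (SE), adjusted p = 0.115). NUP153 passed by limma with trend and robust moderation, or among genes at or above the median. The values of TPR, whose gene overlaps PRG4 in RefSeq, overlapped Ctr with a difference of -0.03.

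Among the importins 2 of 6 rose, beside 14.1% of all genes. Both were of the alpha family that recognises the nuclear localisation signal. KPNA5 read 7.64 and 7.12 with AS1, 7.03 and 7.40 with AS2, and 6.73 and 6.87 with Ctr. No array overlapped Ctr, yet the AS1 arrays were 0.52 apart, and the change of 0.50 ± 0.16 (SE) was close to the threshold (adjusted p = 0.0461). Neither oligonucleotide alone gave a KPNA5 call: the change was 0.58 with AS1 (adjusted p = 0.0526) and 0.42 with AS2 (adjusted p = 0.157). Leaving out any 1 array except AS1 replicate 2 ended the KPNA5 call, with adjusted p between 0.0516 and 0.173. KPNA4 read 10.08 and 9.93 with AS1, 9.66 and 9.81 with AS2, and 9.41 and 9.48 with Ctr. It rose 1.34-fold (log2 change 0.43 ± 0.11 (SE), adjusted p = 0.0193), with a lower mean in 0 of its 12 probesets. The change was 0.56 with AS1 (adjusted p = 0.0129), and 0.29 with AS2, which was not called (adjusted p = 0.164). The rise was uneven: the dim probeset 2703243 rose by 1.56, with 2.99 for AS1 and 0.14 for AS2. It was the only 1 of the 12 called. The KPNA4 call was lost without Ctr replicate 1 (adjusted p = 0.118), Ctr replicate 2 (adjusted p = 0.0637) or AS2 replicate 2 (adjusted p = 0.0774), and when probesets in the dimmest 25% were dropped (adjusted p = 0.0589). KPNA1, another alpha importin, read 9.96 and 9.91 with AS1, 9.50 and 9.75 with AS2, and 9.41 and 9.56 with Ctr. It rose with AS1 (0.45, adjusted p = 0.0447), while with AS2 the first array lay within the Ctr range and the difference was 0.14 (adjusted p = 0.577). KPNB1, the beta importin that docks to the FG repeats, read 9.87 and 9.86 with AS1, 9.78 and 9.88 with AS2, and 10.01 and 10.16 with Ctr, below Ctr on every oligonucleotide array but not called (-0.24, adjusted p = 0.164). KPNA3 and KPNA6 differed from Ctr by 0.12 and 0.02 and were not called. The single probeset of KPNA2, also an alpha importin, read 5.37 and 4.82 with AS1, 5.19 and 5.43 with AS2, and 6.40 and 6.45 with Ctr. Its change was -1.22 (limma adjusted p = 0.0158 over all probesets), beside 10.8% of all probesets called. When genes with 1 probeset were admitted, KPNA2 was called and KPNA5 was not (adjusted p = 0.0636). NUP62CL, a paralogue of NUP62 with no fixed place in the pore, was dim and read 4.17 and 4.20 with AS1, 4.20 and 4.17 with AS2, and 4.21 and 3.85 with Ctr, overlapping Ctr.

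The oligonucleotides were then taken one at a time, each against the same 2 Ctr arrays. With AS1, 20.0% of all genes were called, 8.17% lower and 11.8% higher, and among the members AAAS and SEC13 fell while NUP210L, NUP50, KPNA4 and KPNA1 rose. With AS2, 20.9% of all genes were called, 9.29% lower and 11.6% higher. There AAAS, NUP43, NUP88, SEC13 and NUP37 fell, and NUP210L, NUP50 and NUPL2 rose. The member medians were 0.09 for AS1 and 0.00 for AS2. Without Ctr replicate 2 the AS1 count of lower members went from 2 to 0, and without AS1 replicate 1 or 2 it was 1. The AS2 count of 5 went to 1 without AS2 replicate 1 or 2, and to 3 without Ctr replicate 2.

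The difference between AS1 and AS2 was tested directly, and limma called 0 of 32 members, beside 1.08% of all genes. An unadjusted p under 0.05 was reached by 5 members, a level not counted over all genes. An ANOVA without moderation also called 0, and limma with a variance trend and robust moderation called NUP43 and NUP50. NUP50 was 0.60 higher with AS2 than with AS1 (95% interval 0.33 to 0.87, adjusted p = 0.0512) and NUP210L 0.59 higher (0.28 to 0.90, adjusted p = 0.0971). NUP43 was lower with AS2, at -0.53 (-0.87 to -0.19, adjusted p = 0.187), followed by NUP107 at -0.47 (-0.86 to -0.08) and AAAS at -0.36 (-0.71 to -0.01). The NUP50 difference passed without Ctr replicate 1 and without Ctr replicate 2, NUP210L passed without AS1 replicate 1, and NUP43 passed without AS1 replicate 2. For the other 27 members the interval of the difference included 0, as for SEC13 (-0.33 to 0.25) and NUP88 (-0.47 to 0.12), so differences of that size remain possible.

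**Figure D2:**
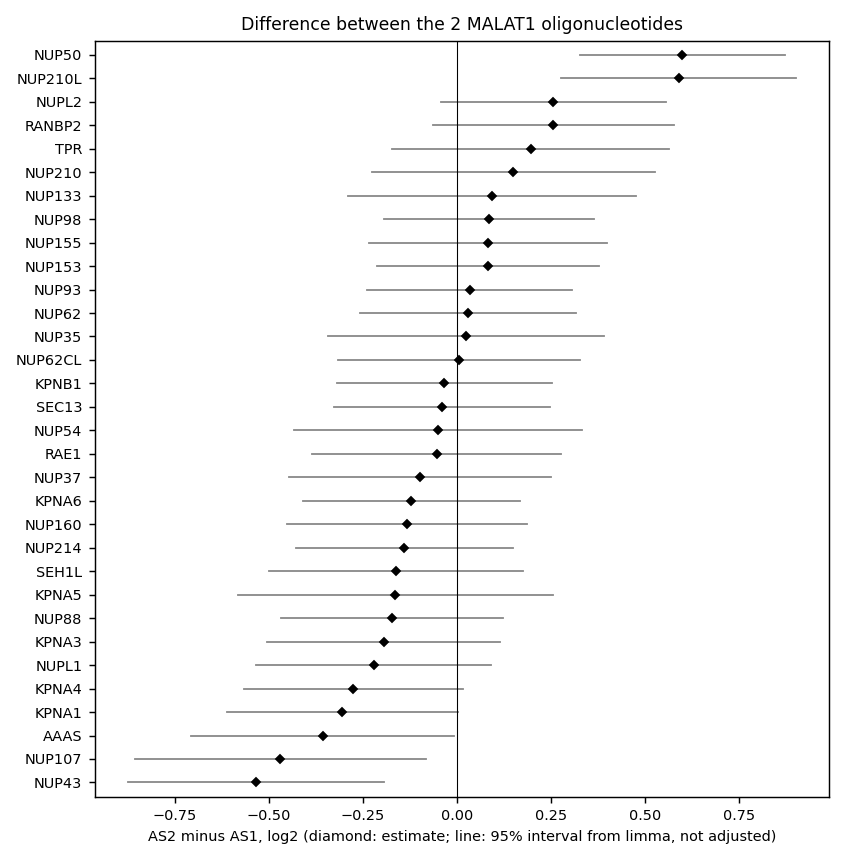
Difference between AS2 and AS1 on the log2 scale (x axis) for the 32 genes, each diamond an estimate from 2 arrays against 2 and each line its 95% interval, not adjusted for the number of genes. NUP50 and NUP210L sit at the top near 0.60 and 0.59 and NUP43 at the bottom at -0.53, while most lines cross 0.

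The exon probesets showed whether a gene moved along its whole length. Of the 687 member probesets 57 were called (8.3%), 20 lower and 37 higher, beside 10.8% of all probesets. The dim gene NUP210L alone held 28 of the 37 called higher, and AAAS and NUP88 held 6 each of the 20 called lower. Unequal change between the probesets of a gene was tested in the 24 members that were bright enough, and 8 were called (33.3%) beside 33.2% of all genes tested. The largest departure was in NUP50 (F test adjusted p = 1.23e-08 in limma). Its probeset 3948469 read 9.85 and 9.67 with AS1, 11.06 and 11.03 with AS2, and 8.23 and 8.45 with Ctr, a rise of 2.06, and the neighbouring 3948468 rose by 1.94. The other 2 probesets of NUP50, 3948462 and 3948466, overlapped Ctr, with differences of -0.13 and 0.02. The rise of NUP50 was thus carried by 2 of its 4 probesets, and in both the change with AS2 (2.71 and 2.64) exceeded that with AS1 (1.42 and 1.24). NUP50 stayed called in this test with each array left out in turn, at adjusted p no higher than 3.63e-05.

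NUPL1 and NUP54 came next. In NUPL1 (adjusted p = 1.50e-05), probeset 3482246 rose by 0.97, which was 0.71 more than the rest of the gene, and 2 of 19 probesets were called, both higher. Without Ctr replicate 1 the NUPL1 result was lost (adjusted p = 0.117). In NUP54 (adjusted p = 2.31e-05), probesets moved in opposite directions: 2774003 rose by 1.22, from 4.67 and 5.58 on the Ctr arrays to between 5.81 and 6.58 with the oligonucleotides, while 2774021 fell by 0.93, from 8.38 and 8.74 to between 7.41 and 7.80. The difference for NUP54 as a whole was 0.10. RANBP2, NUP88, NUP155, KPNB1 and NUP98 were also called. In RANBP2 17 of 22 probesets had a lower mean, and differences ranged from -1.11 to 0.56. The 3 probesets of lowest number had differences of -0.63, -0.89 and -0.88, and the largest fall was among the others. NUP88 had a lower mean in all 18 probesets, by 0.02 to 1.28 in size, and 6 of them were called. A splicing index test kept NUP50 and NUP54 and none of the other 6. Without AS1 replicate 1, 5 members were called in the F test, and 3 without Ctr replicate 1.

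**Figure D3:**
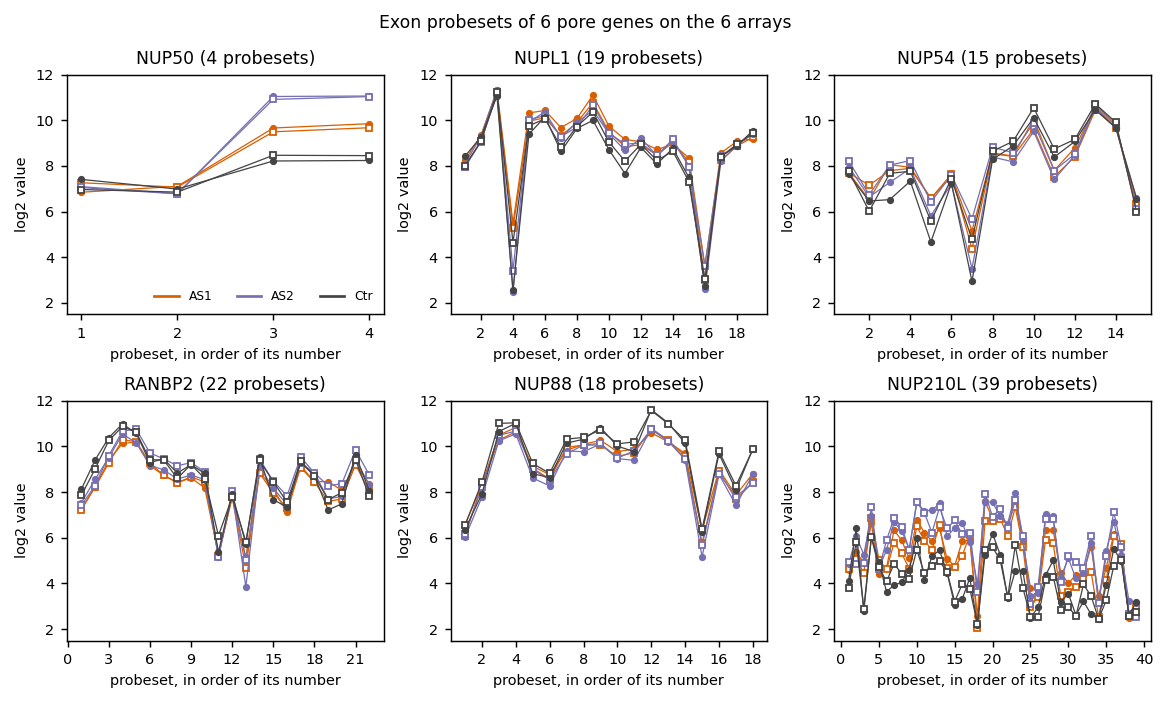
Log2 value (y axis) of every exon probeset of 6 pore genes, in order of probeset number (x axis), with 1 line for each of the 6 arrays. In NUP50 the lines of Ctr, AS1 and AS2 part at probesets 3 and 4 and lie together at probesets 1 and 2, and in NUP210L the oligonucleotide lines lie above Ctr in most of 39 probesets.

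Genes that act with the pore were counted from fixed lists of their pathways. Beside these counts, 10.7% of all genes were called lower and 14.1% higher. Of 3 other pore proteins, GLE1, the mRNA export factor that pairs with NUP42, rose by 0.57 (adjusted p = 0.0042), while AHCTF1 and TMEM48, which seed and anchor new pores, had differences of -0.12 and 0.01. In the Ran cycle 1 of 5 genes rose, RCC1, the exchange factor that loads Ran with GTP in the nucleus (0.89, adjusted p = 0.000253), and the others stayed between -0.22 and 0.11. Of 18 other karyopherins 3 fell and 2 rose. IPO8, an import receptor, fell by 1.60 on the log2 scale, from 8.00 and 8.18 with Ctr to between 6.35 and 6.72, the largest mean change among the genes of these 4 lists. IPO13 and IPO4 fell by 0.61 and 0.47, and XPO1, the main export receptor for proteins, rose by 0.48. Of 16 mRNA export genes 2 fell and 4 rose. THOC6 of the THO complex rose by 1.26, and BAT1, the helicase now named DDX39B, fell by 1.15 in the mean of both. Its change was -1.97 with AS1, and -0.33 with AS2, which was not called (adjusted p = 0.206). The medians of the 4 lists were 0.01, -0.09, 0.00 and 0.26, against -0.04 over all genes.

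**Figure D4:**
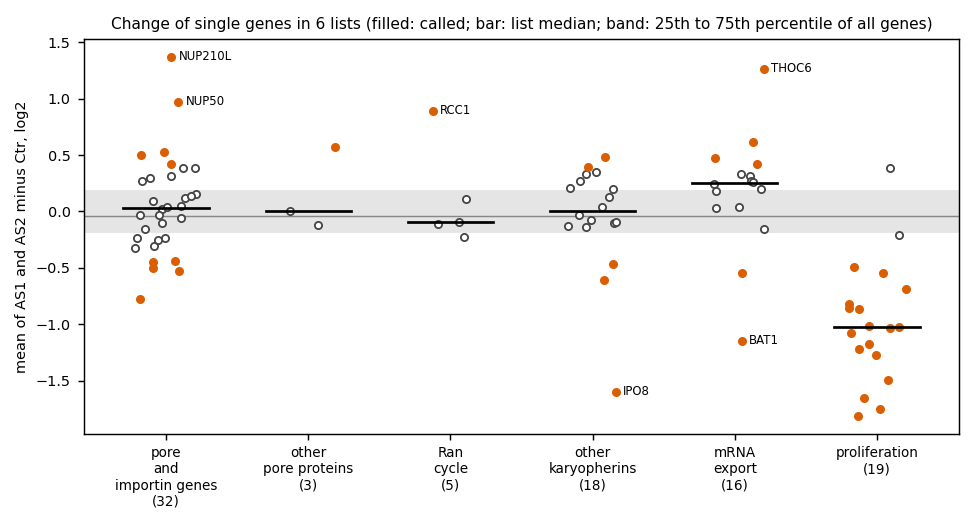
Mean change of AS1 and AS2 against Ctr on the log2 scale (y axis) for single genes in 6 lists, with the number measured in parentheses; filled points were called, bars are list medians, and the grey band and line are the range from the 25th to the 75th percentile and the median of all genes. The pore and transport lists spread to both sides of 0, whereas 17 of 19 proliferation genes were called lower.

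The promoters were searched for 3 motifs known from promoters of cell cycle genes, since proliferation markers moved with the groups. RefSeq promoters (GRCh38.p14, 250 bases before to 50 after the start) were found for 28 of the 32 members and 27305 genes in all. Only the first start listed for each gene was searched. The cell cycle homology element TTTGAA, searched on both strands, occurred in 4 of the 28 (14.3%) and in 15.4% of all promoters. An E2F site (TTTCCCGC, TTTGGCGC, TTTCGCGC or TTTGCCGC, both strands) occurred in 1 (3.6%) and in 3.3% of all, and a CCAAT box (both strands) in 12 (42.9%) and in 35.7%. The CCAAT box was in 2 of 4 members that fell (NUP88 and NUP37) and in 2 of 3 that rose (NUP210L and NUPL2) and had a promoter in the table. Those 4 that fell were AAAS, SEC13, NUP88 and NUP37. NUP88 and NUP37 held at least 1 of the 3 motifs, and their 250 bases before the start are shown 5′ to 3′ on the strand of the gene, with matches in capitals: ATTGG is CCAAT on the other strand, and TTCAAA is TTTGAA on the other strand.
NUP88, chr17:5419663-5419912, minus strand: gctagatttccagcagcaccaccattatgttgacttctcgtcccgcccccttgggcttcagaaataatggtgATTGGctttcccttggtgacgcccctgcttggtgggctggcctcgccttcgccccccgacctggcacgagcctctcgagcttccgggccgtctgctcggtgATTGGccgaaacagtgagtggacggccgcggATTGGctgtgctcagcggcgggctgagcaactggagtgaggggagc
NUP37, chr12:102120115-102120364, minus strand: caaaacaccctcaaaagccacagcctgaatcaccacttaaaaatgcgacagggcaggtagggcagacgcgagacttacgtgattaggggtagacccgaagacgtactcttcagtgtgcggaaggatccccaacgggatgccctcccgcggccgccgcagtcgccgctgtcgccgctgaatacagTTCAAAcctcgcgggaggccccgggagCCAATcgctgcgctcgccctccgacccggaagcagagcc
NUP88 held 3 CCAAT matches, beginning at bases 73, 174 and 205 of the window, and NUP37 held the TTTGAA match at base 185 and a CCAAT box at base 212. AAAS and SEC13 held none of the 3 motifs in the window, and SEC13 has 2 starts listed. Whether a motif bears on any change was not tested. A match is a description of the sequence, not a bound site.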

How the data were processed

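RNA of WI38 cells was hybridised to Human Exon 1.0 ST arrays from 100 ng of total RNA. The values deposited by the authors are log2 probeset values after RMA in Partek (versions not given in the sources used here); RMA sets all arrays to 1 distribution, so a shift of all genes together is not seen, and background at low signal shrinks changes of dim genes. The table held 232479 probesets: 216780 named 1 gene, 2335 several and 13364 none, and only the first were used. Gene values were means of 3 or more probesets. The 3 groups of 2 arrays were fitted in 1 model with limma 3.58.1 in R 4.3.3 (prior df 7.45, residual df 3), adjusted over all 15417 genes. Unequal probesets were tested with diffSplice, leaving out probesets below the 25th brightness percentile and genes below the 50th. Scripts were tested on simulated data. The number of arrays limits the precision.

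The methods' own ANOVA on the same values, the median of probesets, brightness filters, renormalization, a 2-fold and unadjusted p of 0.001 threshold, and leaving out each array were run as alternatives. A minimum of 1 probeset per gene was also run. Members and lists were chosen with earlier results of these data known. Values on all arrays were printed for up to 4 members per place in the pore, by size of change; other transport genes for up to 4 called per list; probesets for the 3 members of smallest F test p, with others named after their values were seen; promoters for members called lower. Probe positions were not used here. Sequences of the oligonucleotides came from the study's primer list and those of promoters from RefSeq. Symbols were matched to RefSeq, 30 as current and 2 as synonyms. No scan date or batch was used.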

Additional observations from a re-analysis of the deposited data

Results flagged for a closer look

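BAT1 (DDX39B), an mRNA export helicase and not a pore gene, differed between the 2 MALAT1 oligonucleotides by a test of the difference itself. It read 8.47 and 8.16 with AS1, 10.10 and 9.81 with AS2, and 10.15 and 10.42 with Ctr, and AS2 was higher than AS1 by 1.64 on the log2 scale (limma adjusted p = 0.0013). Both AS1 arrays were below both AS2 arrays and below both Ctr arrays.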

How the results depend on the processing

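The median change of the members stayed between -0.05 and 0.09 under all alternatives. Counts of members lower in the mean (5) were 1 with ANOVA without moderation, 0 at the 2-fold threshold, and 2 to 6 with 1 array left out. Counts higher in the mean (5) were 2 with ANOVA, 1 at the 2-fold threshold (NUP210L), 9 with trend and robust moderation, and 3 to 8 with 1 array left out. For AS1 the lower count (2) was 1 with the median of probesets, 6 for genes at or above the median, 0 with ANOVA, 6 with trend and robust moderation, 0 at the 2-fold threshold, and 0 to 2 with 1 array left out. For AS2 the lower count (5) was 0 with ANOVA, 0 at the 2-fold threshold, and 1 to 5 with 1 array left out. For AS2 against AS1 the count (0) was 1 for genes at or above the median, 1 after quantile normalization again, 1 with only these groups fitted, 2 with trend and robust moderation, and 0 to 1 with 1 array left out. Members with unequal probesets (8) were 2 by the splicing index, and 3 to 11 with 1 array left out. The share of all genes called can differ between settings and is not given for each, here or in the next paragraph. A count above or below the main one is therefore not a result about the members. The same holds for the counts with an array left out in the Results.

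With a replicate block, 4 members were lower and 4 higher in the mean, and the call was lost for NUP43 (adjusted p = 0.0561) and KPNA5 (adjusted p = 0.0783). AS1 then had 2 lower, AS2 4, AS2 against AS1 0, and 7 had unequal probesets. No source says whether the replicate numbers pair samples across groups. Deviations of same-numbered arrays correlated at -0.34 (AS1 with AS2), -0.51 (AS1 with Ctr) and 0.39 (AS2 with Ctr). Whether some arrays share a batch was not tested. A crossed replicate block, in which the numbers of the AS1 arrays were exchanged, was added after seeing the data. It gave 8 lower and 10 higher in the mean, 7 lower with AS1 and 9 lower with AS2. It also gave 3 differing between AS2 and AS1, and 15 with unequal probesets.

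Over 2455 single gene values under an alternative, 2222 kept their side of the threshold and direction where called, 141 lost the call, 92 gained it and 0 called values changed sign. Causes were not tested. With 2 arrays per group, a member's change carried a 95% half-width of 0.24 to 0.36 on the log2 scale before adjustment, and 17 members had an unadjusted p under 0.05 against 10 called. An uncalled change, such as 0.39 for RAE1, can thus exceed its half-width. How many of all genes had an unadjusted p under 0.05 was not counted. An adjusted p is never below its unadjusted p, so that share is at least the 24.8% of all genes called. The 17 members are therefore not a result about the pore genes. Dim genes, NUP210L and NUP62CL among them, sit near the background of the arrays. NUP210L kept its call in 16 of 16 alternatives, and AAAS and SEC13 lost theirs with ANOVA (adjusted p = 0.094 and 0.0563) and at the 2-fold threshold.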
